A study of Homo sapiens with 40 samples.

Results

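Of 58908 H3K27ac peaks called in SETDB1 knockout (KO) A549 cells, 7884 (13.4%) overlapped no H3K27ac peak of control cells and no H3K4me3 peak of either genotype by even 1 bp. These new distal H3K27ac peaks made up 42.7% of the 18461 KO peaks without a control H3K27ac peak. A549 is an established human lung adenocarcinoma line. Control cells were A549 and KO cells were A549 in which SETDB1 had been disrupted by CRISPR/Cas9 from a PX458 plasmid; whether the KO cells were a single clone or a pool is not given in the sources used here. The data were RNA-seq (3 libraries per genotype), Hi-C (2 per genotype) and ChIP-seq of H3K27ac, H3K4me3, H3K9me3, H3K27me3 and CTCF (2 libraries per mark and genotype, deposited as a single peak list each). Because each mark has a single list per genotype, values from peaks carry no replicate error. Their 95% Wilson intervals, and Newcombe intervals for differences, cover counting error only.

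H3K27ac, acetylation of histone H3 at lysine 27, marks active enhancers and promoters, while H3K4me3 marks mainly promoters, so H3K27ac peaks away from H3K4me3 are a common working definition of candidate enhancers. SETDB1 methylates histone H3 at lysine 9, and the H3K9me3 it leaves is typical of silent chromatin. It often works together with the adaptor KAP1 and zinc finger proteins that recognise repeats. H3K27me3 is the repressive mark of the Polycomb system. CTCF is a DNA-binding protein that, with cohesin, sets the borders of topologically associating domains (TADs), and at a coarser scale Hi-C divides chromosomes into an active A and an inactive B compartment.

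The members were chosen from H3K27ac and H3K4me3 peaks, so their absence from the control lists describes the choice and is no result. At its edge, 86 members (1.09%) lay within 100 bp of an excluded peak, and 67 KO H3K27ac peaks fell outside the rule with at most 100 bp inside one. The nearest control H3K27ac peak was within 1 kb for 1251 members (15.9%), within 5 kb for 3901 (49.5%) and within 50 kb for 90.5%. The lists give positions without heights, so a control site with no acetylation and one just below the calling threshold cannot be told apart. Members were narrow, with a median width of 856 bp (quartiles 612 and 1181 bp) and 7.64 Mb in all, and 52 reached 3 kb. For comparison, 7699 kept distal peaks (KO H3K27ac overlapping control H3K27ac, away from H3K4me3) had a median of 1165 bp. A further 11459 lost distal peaks (control H3K27ac, with no KO H3K27ac and away from H3K4me3) had a median of 858 bp. New H3K27ac peaks that did overlap H3K4me3 numbered 10577.

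Checks of the whole series bear on these values as follows. SETDB1 was measured at 37.5, 39.6 and 38.7 CPM (counts scaled to library size) in control and at 23.4, 21.2 and 21.1 CPM in KO RNA-seq libraries, with no overlap (log2 fold change -0.82, SE 0.060, adjusted p = 1.7e-12 in edgeR's quasi-likelihood test). Keratins KRT8 and KRT18, epithelial markers, were abundant in every library and higher in KO (log2 fold changes 1.54 and 1.73). The epithelial markers EPCAM and CDH1 averaged 4.01 and 27.1 CPM in control and 10.8 and 52.4 CPM in KO libraries. NKX2-1, SFTPB and SFTPC, markers of lung alveolar cells, were at or below 0.662 CPM. Of 7 fibroblast and immune markers, COL1A2, DCN and CD3E had no count in any library, and LUM, PTPRC and CD68 were at or below 0.325 CPM. COL1A1 was at 3.19, 3.04 and 3.09 CPM in control and 4.10, 3.83 and 3.56 CPM in KO libraries (edgeR adjusted p = 0.041). Library totals ranged from 18065062 to 48364919 counts. The labels do not say whether replicates came from separate cultures, so the p-values measure only the spread between these libraries.

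To ask which marks had covered the members before SETDB1 was lost, each member was overlapped with the control peak lists. H3K9me3 covered 1185 members (15.03%, interval 14.3 to 15.8%) in control cells and 59 (0.748%, 0.581 to 0.964%) in KO cells. The KO share was low in the other distal sets too, 0.195% for kept and 1.45% for lost distal peaks. The control share was 9.38% for kept and 5.66% for lost distal peaks, 5.65 points (4.63 to 6.68) and 9.37 points (8.48 to 10.3) below that of the members. Prior H3K9me3 was thus more frequent at new distal sites than at distal sites that kept or lost acetylation, although it was absent from most of them. By length, control H3K9me3 peaks covered 13.7% of member sequence, 6.28% of kept and 3.75% of lost distal sequence and 12.4% of all 100 kb bins used for compartments below. Members were thus near the level of the genome as a whole, and the kept and lost sets lay under it. New H3K27ac peaks at H3K4me3 had the highest share, 17.8%.

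H3K27me3 was rare. It covered 61 members (0.774%) in control and 13 (0.165%) in KO cells, against 0.0519% of kept and 0.0436% of lost distal peaks in control. At new H3K27ac peaks with H3K4me3 the control share was 5.40%, and the members minus this set gave -4.62 points (-5.10 to -4.16). Sorted by both marks in control, 1144 members (14.5%) had H3K9me3 alone, 20 had H3K27me3 alone, 41 had both, and 6679 (84.7%) had neither. The same neither state held for 90.6% of kept and 94.3% of lost distal peaks.

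**Figure D1:**
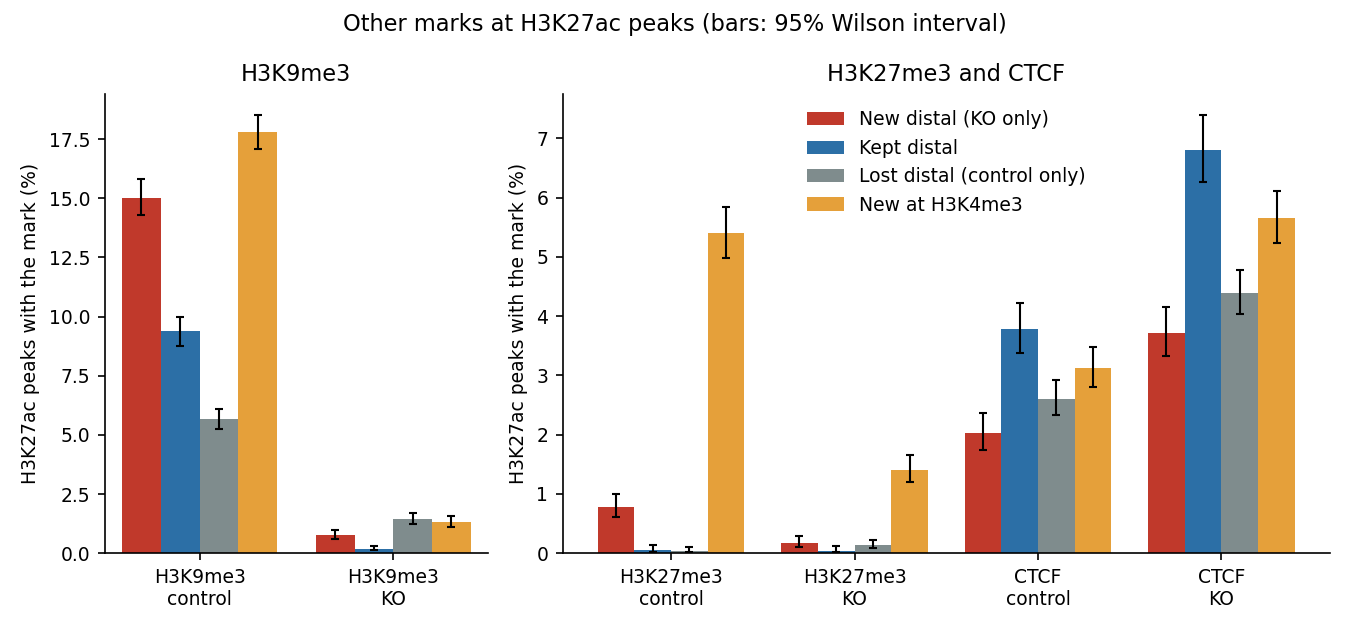
Share of H3K27ac peaks (vertical axis, %) that overlap a peak of another mark by at least 1 bp, for new distal, kept distal and lost distal peaks and new peaks at H3K4me3; error bars are 95% Wilson intervals. New distal peaks stand at 15.03% for control H3K9me3 against 9.38% and 5.66% for kept and lost distal peaks, and at 0.748% for KO H3K9me3.

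The 1185 members over control H3K9me3 mostly lay inside it. The whole peak was within H3K9me3 for 761 of them (64.2%), compared with 45.4% of kept and 44.99% of lost distal peaks that touched the mark. In KO cells 30 of the 1185 (2.53%) still overlapped H3K9me3, compared with 1.25% of kept and 8.17% of lost distal peaks over control H3K9me3. A further 29 members overlapped KO H3K9me3 without control H3K9me3. The 1046 control H3K9me3 peaks beneath members had a median width of 3997 bp. Those beneath kept (686) and lost (624) distal peaks, selected in the same way, had medians of 2821 and 2834 bp. A wide peak is overlapped more readily, so the 2303 bp of all 102976 control H3K9me3 peaks is not a like comparison. A KO H3K9me3 peak overlapped 5.83% of those beneath members, 2.62% of those beneath kept and 9.94% of those beneath lost distal peaks.

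Averaged over all members, control H3K9me3 peaks covered 12.4% of the sequence at the member centre and 9.82% at a distance of 20 kb. Kept distal peaks ran the other way, from 6.45% at the centre to 7.07% at 20 kb, and lost distal peaks dipped to 3.82% at the centre from 6.97%. In KO cells 0.625% of the sequence at member centres was covered. Relative to kept and lost distal peaks, members had more control H3K9me3 both at 20 kb and, by a larger margin, at the centre. Relative to the 12.4% of all bins, the centre was level and the flanks were lower.

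**Figure D2:**
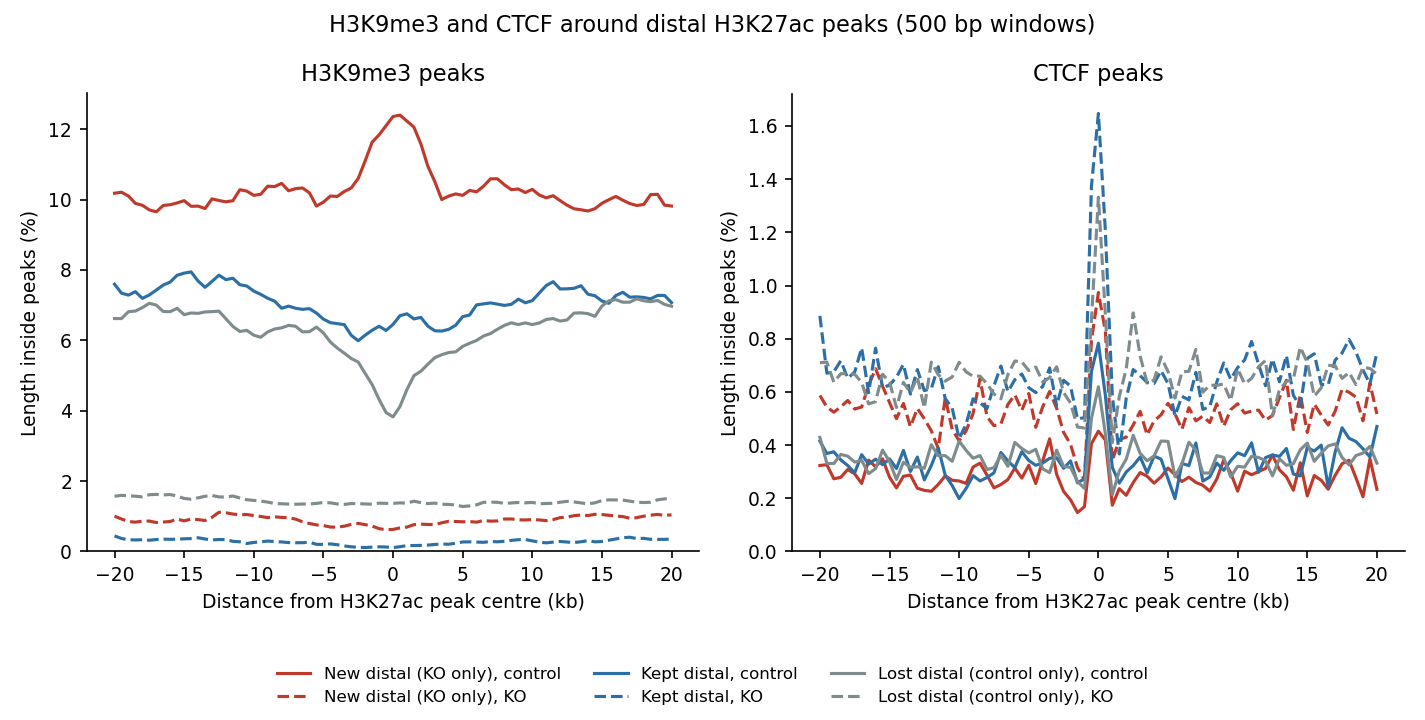
Share of sequence inside H3K9me3 (left) and CTCF (right) peaks (vertical axes, %) in 500 bp windows by distance from the H3K27ac peak centre (kb), with control as solid and KO as dashed lines. Control H3K9me3 at new distal peaks rises to 12.4% at the centre, where lost distal peaks fall to 3.82%, and KO CTCF at the centre of new distal peaks reaches 0.974%.

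The share of members over control H3K9me3 was not even along the genome. On chromosome 19 it was 41.5% (139 of 335 members), against 3.71% of kept and 2.62% of lost distal peaks there, and no other chromosome passed the 22.0% of chromosome 8. Chromosome 19 is known for large clusters of zinc finger genes, many of them covered by H3K9me3. The share was higher in members than in kept distal peaks on 19 of 23 chromosomes, and higher than in lost distal peaks on 23 of 23. The exceptions in the first comparison were chromosomes 1, 4, 6 and 13. Without chromosome 19 the share over all members was 13.9% and its surplus over kept distal peaks 4.21 points.

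The compartment of the members was read from the deposited Hi-C compartment signal, a signed score per 100 kb bin and replicate. Control H3K27ac covered 6.94% of the 14637 bins with a positive mean control signal and 0.437% of the 11866 negative bins, so positive bins are called A and negative bins B. Of the members, 7626 could be placed in a bin and 258 could not. In control cells 88.2% (87.4 to 88.9%) of placed members lay in A, compared with 95.9% of kept and 94.7% of lost distal peaks, 71.3% of new peaks at H3K4me3 and 55.2% of all bins. New distal acetylation was thus mainly an event of chromatin that was already A, but the B share of members, 11.8%, exceeded the 4.14% and 5.28% of kept and lost distal peaks.

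By the sign of the mean signal in each genotype, 6498 members (85.2%) lay in A in both, 530 (6.95%) in B in both, 371 (4.87%) in bins that went from B to A and 227 (2.98%) in bins that went from A to B. B-to-A bins held 1.35% of kept and 0.987% of lost distal peaks. Among the 901 members in B in control, 41.2% (38.0 to 44.4%) were in B-to-A bins, against 32.7% (27.7 to 38.1%) of kept and 18.7% (15.8 to 22.0%) of lost distal peaks in B and 13.1% of all B bins. New peaks at H3K4me3 had a similar share, 44.2% (42.4 to 46.0%). Leaving out bins with a signal near 0 in either genotype lowered the B-to-A share of members to 2.81% and the A-to-B share to 0.695%. Many members of these classes thus lay in bins near 0 in control or in KO cells. The filter used the level of the signal, so it does not show how large the changes were.

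Prior marks and compartment went together. Control H3K9me3 covered 43.9% of members in B-to-A bins, 24.3% of those in B in both, 12.48% of those in A in both and 10.6% of those in A-to-B bins. KO H3K9me3 was nearly absent from members in A (2 of 6725), and stood at 1.08% of B-to-A members and 10.0% of members in B in both. Within A, control H3K9me3 covered 12.4% of members and 12.7% of new peaks at H3K4me3, a difference of -0.254 points whose interval (-1.35 to 0.846) includes 0. Within B, 32.4% of members had it, against 24.0% of kept and 16.0% of lost distal peaks. By length, control H3K9me3 covered 10.8% of member sequence in A, beside 9.89% of all A bins, and 32.5% in B, beside 15.5% of all B bins. The members over control H3K9me3 were themselves mostly in A: 72.0% lay in A in both genotypes, 14.5% in B-to-A bins and 11.5% in B in both.

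The signal itself was tested with limma in all 26503 bins, with 2 control and 2 KO replicates. At least 1 member lay in 4821 bins, and up to 13 in a single bin. Of these 4821 bins, 1065 (22.1%) were higher in KO, where the share over all bins was 21.5%, and 1194 (24.8%) were lower, where it was 37.3%. The share of higher bins was thus near the background, and falls were less frequent than in the genome as a whole. With the replicate columns scaled to the same SD, 880 bins with a member were higher and 1513 lower. Shares over all bins under that scaling are not given here, so the comparison holds for the deposited scale.

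The bins differed by their compartment in control. In the 4130 A bins with a member, the mean signal was 0.740 and 0.742 in the control and 0.719 and 0.712 in the KO replicates, and 16.3% were higher and 25.2% lower, beside 17.0% and 32.9% of all A bins. In the 691 B bins with a member it moved from -0.391 and -0.404 in control to -0.115 and -0.115 in KO replicates. The difference was 0.282 (0.276 and 0.289 by replicate number), and the genotypes did not overlap. Of these B bins, 391 (56.6%) were higher in KO, beside 27.1% of all B bins, and 155 (22.4%) were lower, beside 42.6%.

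Other KO H3K27ac peaks were accompanied by a like but smaller difference. The 2440 B bins with some KO H3K27ac peak but no member had a mean difference of 0.191, and 48.6% were higher. Without chromosome 19 the difference was 0.18 in such bins, with 47.9% higher. In B bins with a member it was then 0.231, with 54.2% higher. In the 8735 B bins without any KO H3K27ac peak the difference was -0.0826, with 18.8% higher and 48.3% lower. Among B bins, those holding a lost distal peak and no member had a mean difference of -0.131 (374 bins), and those holding a member and no lost peak 0.332 (601 bins). The 90 B bins with both had a mean difference of -0.0514. Among A bins both kinds had negative means, -0.0602 (2948 bins with a lost peak and no member) and -0.0196 (2066 bins with a member and no lost peak).

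The difference in B bins was larger where more members lay together. It was 0.244 in 556 bins with 1 member, 0.343 in 97 bins with 2, and 0.689 in 38 bins with at least 3, of which 30 (78.9%) were higher in KO. In those 38 bins control H3K9me3 peaks covered 53.1% of the sequence and KO peaks 1.36%. Chromosome 19 contributed 15 of the 38 bins, all 15 higher in KO, with a mean difference of 1.24 and H3K9me3 coverage of 91.8% in control and 0.114% in KO. Without chromosome 19 the 23 remaining bins had a mean difference of 0.328 and 15 (65.2%) were higher, and all B bins with a member had a difference of 0.231. Splitting B bins by mark, the 211 with a member over control H3K9me3 had a mean difference of 0.524 (72.5% higher), and the 480 whose members were all outside it 0.176 (49.6% higher). H3K9me3 loss and member number moved together here, and their separate parts in the signal were not tested.

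**Figure D3:**
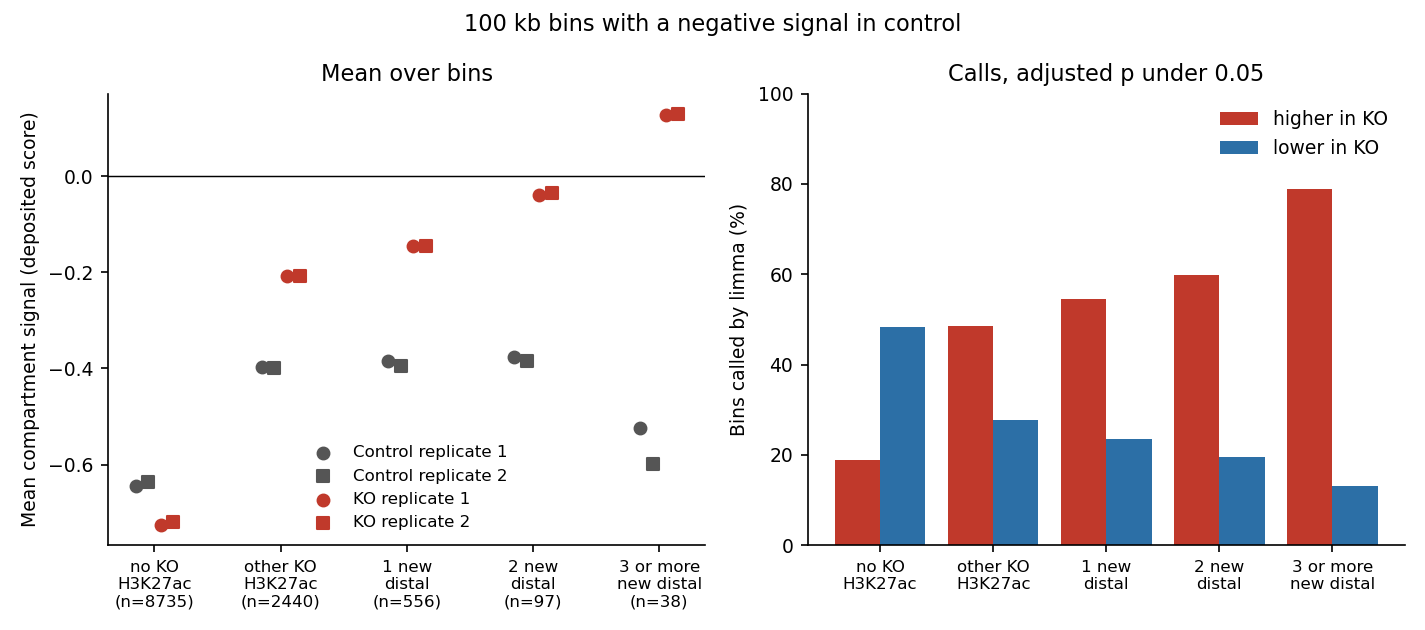
Mean compartment signal of each Hi-C replicate (left, deposited score) and share of bins called by limma (right, %) for 100 kb bins negative in control, grouped by the KO H3K27ac peaks they hold. The signal difference grows from -0.0826 without KO H3K27ac to 0.689 with at least 3 new distal peaks, where 78.9% of bins were higher in KO.

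Clustering was examined next, since enhancers that lie close together are often counted as a single super-enhancer-like unit. Gaps and groups counted peaks of the same set only, so a single member can lie beside other H3K27ac peaks. Of all members, 66.1% lay within 10 kb of a control H3K27ac peak. Among themselves, members were more scattered than kept or lost distal peaks. The median gap to the nearest other member was 29.7 kb (28.0 to 31.3), against 15.5 kb for kept and 13.2 kb for lost distal peaks, and 39.2 kb for new peaks at H3K4me3. Joining members over gaps up to the usual stitching distance of super-enhancers, between 12 and 13 kb and marked in the plot of gaps, gave 6250 groups, of which 5155 were single members (65.4% of members) and 780 were pairs. Clusters of at least 3 numbered 315 and held 1169 members (14.8%), compared with 26.9% of kept and 28.7% of lost distal peaks. Gaps also depend on how many peaks a set has. The lost set is larger, with 11459 peaks, but the kept set, with 7699, is close in size to the members.

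**Figure D4:**
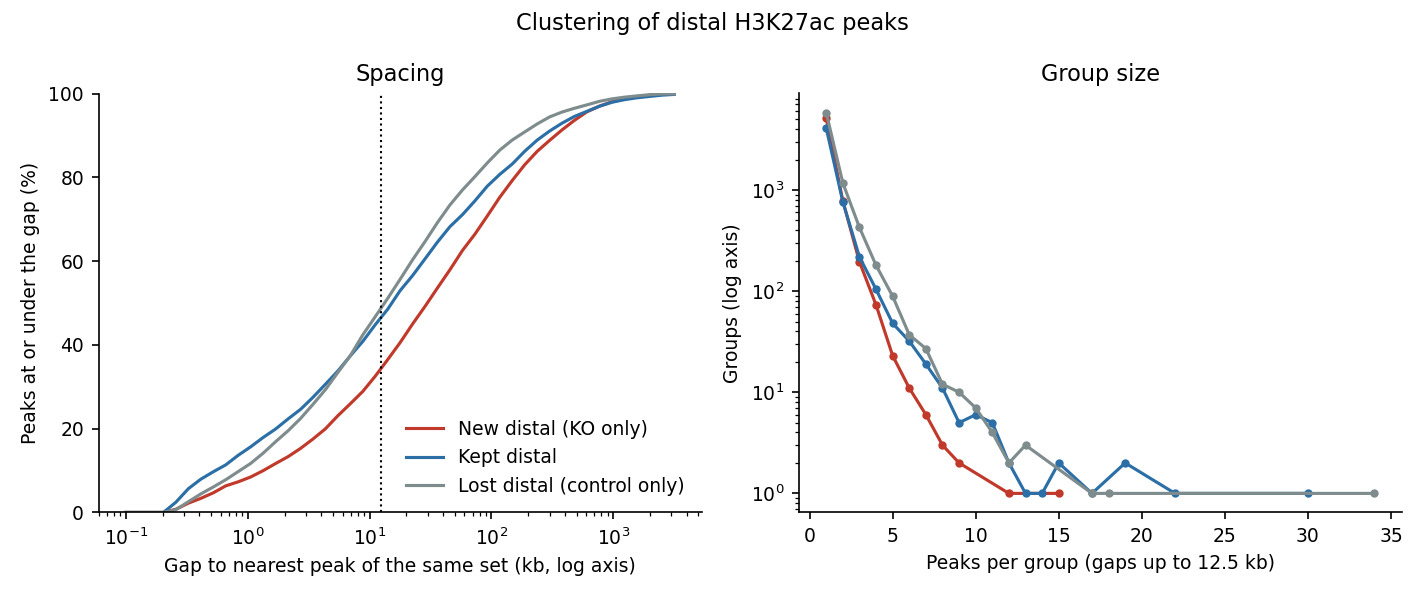
Left, share of peaks (%) whose nearest peak of the same set lies at or under a given gap (kb, log axis; dotted line at the stitching distance); right, number of groups (log axis) by peaks per group. The curve of new distal peaks runs to the right of both others, with a median gap of 29.7 kb, and its largest group has 15 peaks where the lost set reaches 34.

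Clustered members were wider, with a median of 986 bp in clusters of at least 3 and 827 bp for singles. They were also less often in B in control, 6.69% (5.39 to 8.28%) against 14.0% (13.05 to 14.98%). Control H3K9me3 covered 13.1% (11.3 to 15.1%) of clustered and 15.7% (14.7 to 16.7%) of single members, intervals that overlap. None of the 1169 clustered members overlapped KO H3K9me3, which allows a share of up to 0.257% by a limit of 3 counts (0.328% by the Wilson interval), and 47 singles (0.912%) did.

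The clusters with the most members came in several kinds. The first, 15 members at chr5:179668563-179754898 (hg19, as are all positions), spanned 86.3 kb. A single control H3K9me3 peak of 74.9 kb, chr5:179641706-179716625, covered 55.7% of it and 7 of its members, and no KO H3K9me3 peak touched it. Its bins were already A, with a signal of 1.07 and 1.17 in control and 1.22 and 1.20 in KO replicates, and neither bin was called. Here acetylation appeared and H3K9me3 went missing without a called change of compartment. The second widest member, chr5:179676802-179686127 (9326 bp), lies in this cluster, wholly inside the control H3K9me3 peak.

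Another group had little H3K9me3 and stayed in A. The 12 members at chr9:90174472-90266447 had 5.42% of their span under control H3K9me3 and a signal of 0.476 and 0.428 in control and 0.550 and 0.567 in KO replicates, with 1 of 2 bins higher (adjusted p = 0.035, limma). The 9 members at chr12:112479627-112530319 had none, signals of 1.15 and 1.18 against 1.21 and 1.17, and no bin called. Both also held distal peaks kept from control, 2 and 4 of them. The clusters at chr5:32400462-32426377 and chr12:32839613-32872248, with 8 members each, had 8.13% and 8.54% of their span in control H3K9me3, and no bin of theirs was called.

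Another kind rose further in compartment signal. Of the 8 members at chr12:14585070-14629463, 3 lay over control H3K9me3 (27.9% of the span), and the signal moved from 0.0966 and -0.0044 in control to 0.522 and 0.477 in KO replicates, with both of its bins higher (lowest adjusted p = 1.1e-05, limma). The 7 members at chr19:37236360-37260310 lay wholly inside a control H3K9me3 peak of 97.6 kb (chr19:37194519-37292129), and their bin went from -1.47 and -1.52 to 0.262 and 0.271, a difference of 1.76 (SE 0.042, adjusted p = 3.3e-09, limma). That was the clearest change from B to A among the 10 largest clusters.

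The opposite also occurred. The 9 members at chr3:172509092-172532214 fell in a bin whose signal went from 0.492 and 0.570 in control to -0.249 and -0.247 in KO replicates, a difference of -0.779 (SE 0.044, adjusted p = 2e-07, limma). This bin, chr3:172500001-172600000, had the largest fall of all bins with at least 3 members, although 17.3 kb of it was newly acetylated. Its H3K9me3 coverage went from 17.5% in control to 0% in KO cells, and H3K27me3 covered 28.0% and 23.4% of it. In the next largest fall, chr3:3100001-3200000 with 4 members, H3K9me3 coverage rose from 11.3% to 46.9% while the signal went from 0.106 and 0.135 to -0.547 and -0.587. None of its 4 members overlapped that KO H3K9me3. The bins with the next falls, chr12:2900001-3000000 and chr4:1800001-1900000, had no H3K9me3 peak in either genotype. In chr3:20200001-20300000, last of the 5 largest falls, coverage went from 5.86% to 10.7%. New distal peaks thus lay in bins that fell as well as in bins that rose.

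In none of the 10 largest clusters did a KO H3K9me3 peak or an H3K27me3 peak of either genotype overlap the span. The remaining pair, 7 members each at chr9:90279669-90309685 and chr5:96072590-96104935, had 29.1% and 0% of their span under control H3K9me3. In each of them 1 of 2 bins was higher in KO (adjusted p = 0.035 and 0.0020, limma). The first of these calls is not a separate one. It is the bin chr9:90200001-90300000, shared with the neighbouring cluster of 12 members at chr9:90174472-90266447.

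Counted by TAD, 3126 of 6118 control TADs (51.1%) held a member. At least 5 members lay in 369 TADs, which together held 2658 members (33.7%). Of the TADs with a member, 2105 also held a lost distal peak and 1021 did not, and 1901 members lay in the latter. Another 1158 TADs had lost distal peaks and no member. Gained and lost distal peaks thus often shared a TAD. Lost peaks were also common elsewhere: the 2105 and 1158 TADs together are those with a lost peak, out of 6118.

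The TAD with the most members, 37, was chr19:36680001-38380000. All 37 lay over control H3K9me3 and none over KO H3K9me3, and peaks of this mark covered 92.2% of the domain in control and 0.736% in KO cells. H3K27ac peaks of any kind rose in number from 20 to 113, 58 of the new ones at H3K4me3, and CTCF peaks went from 36 to 17. The compartment signal was negative in every one of its 17 bins in both control replicates, between -1.85 and -0.630, and lay between -0.0216 and 0.283 in the KO replicates. All 17 were higher in KO by limma. Of the 11 bins within 500 kb on either side, 4 were higher and 0 lower. The bin across the start of the domain moved from 0.0540 and -0.0715 to 0.562 and 0.472, and the others moved less.

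**Figure D5:**
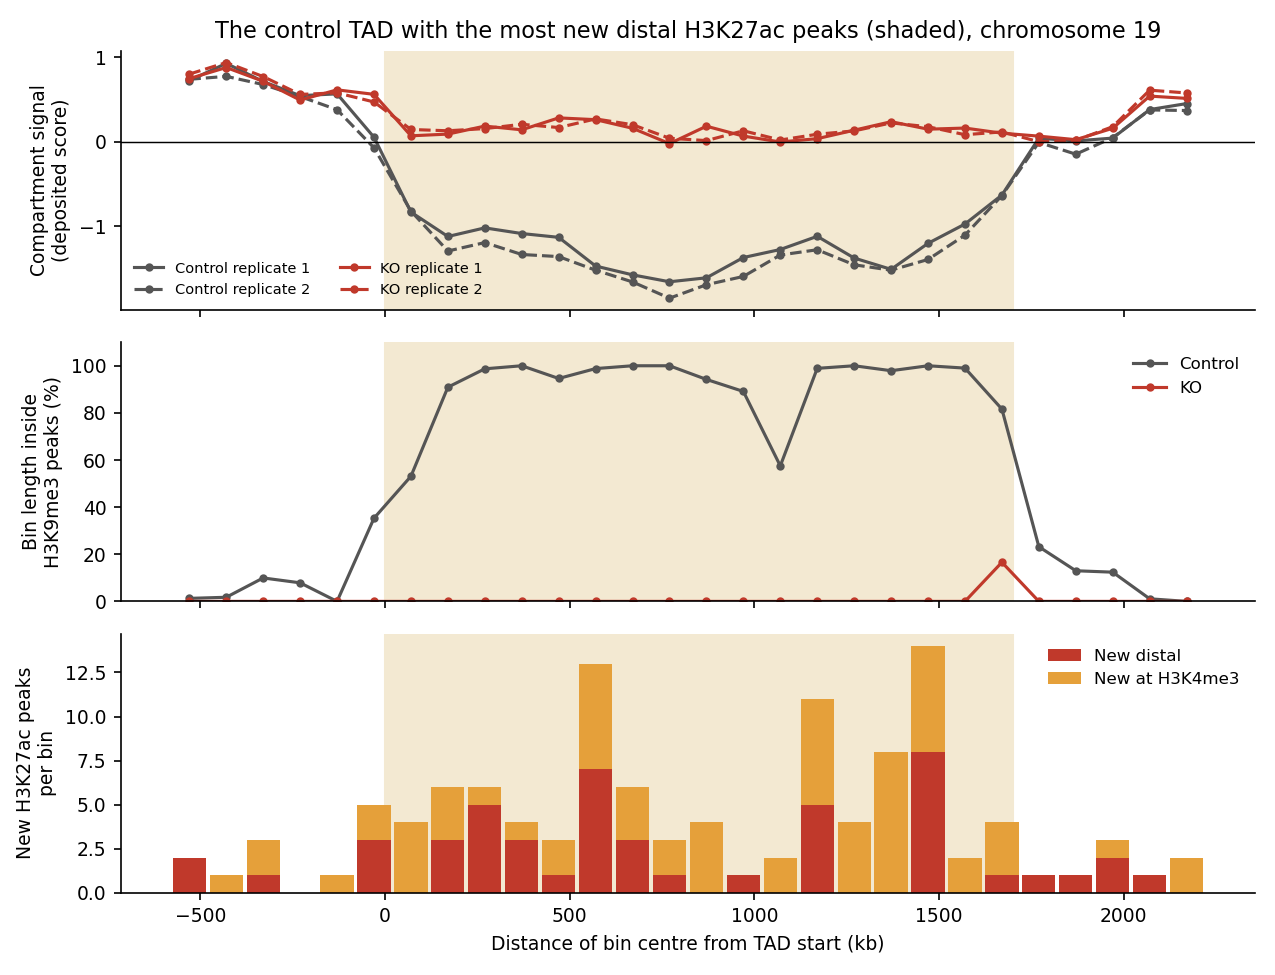
Compartment signal per replicate (deposited score), bin length inside H3K9me3 peaks (%) and number of new H3K27ac peaks per 100 kb bin, by distance from the start of the TAD (kb); the TAD of 1700 kb is shaded. In the shaded part the control signal lies between -1.85 and -0.630 and the KO signal between -0.0216 and 0.283, while control H3K9me3 covers 92.2% of the TAD and KO H3K9me3 0.736%.

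The other TADs rich in members did not share this picture. At chr12:31800001-32480000 (20 members) the signal was 0.706 and 0.737 in control and 0.741 and 0.730 in KO replicates, and none of 7 bins was called. At chr3:30040001-30800000 (20 members) H3K9me3 coverage fell from 47.6% to 1.32%, yet the domain was A in both genotypes (0.695 and 0.736, then 0.612 and 0.658) and 3 of its 8 bins were lower. The TADs chr5:179520001-179920000 (19 members) and chr12:124820001-125260000 (18 members) also stayed in A, each with 1 of 5 bins higher.

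Beside the chromosome 19 domain, bins with at least 3 members and a large rise were found on chromosome 7 and elsewhere on chromosome 19. The bin chr7:64000001-64100000, with 5 members all over H3K9me3, went from -0.523 and -0.485 to 1.19 and 1.20 as H3K9me3 coverage fell from 97.4% to 0%. The bins chr19:52400001-52500000 and chr19:58600001-58700000, with 3 members each, rose by 1.58 (SE 0.054) and 1.52 (SE 0.051), and control H3K9me3 covered 100% and 98.5% of them. KO H3K9me3 covered 1.72% and 0% of the pair on chromosome 19.

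The widest member had another profile. It spanned 13506 bp at chrX:115401299-115414804, in a bin that went from -0.953 and -0.906 in control to 1.13 and 1.26 in KO replicates, a rise of 2.12 (SE 0.051, adjusted p = 3.3e-09, limma). No control H3K9me3 peak lay on it, while a KO H3K9me3 peak covered 23.9% of its length. The other wide member on the X chromosome, chrX:68243475-68248656 (5182 bp), had no H3K9me3 in either list and rose from 0.596 and 0.593 to 0.900 and 0.736. The remaining wide member, chr19:38155833-38162413 (6581 bp), lies in the chromosome 19 TAD described above. At least 3 kb was reached by 22 of the members over control H3K9me3 (1.86%) and by 30 of the others (0.448%).

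CTCF was uncommon at the members in both genotypes. It overlapped 160 members (2.03%) in control and 293 (3.72%) in KO cells, and the corresponding shares were 3.78% and 6.81% for kept and 2.61% and 4.39% for lost distal peaks. The KO share of members differed from that of kept distal peaks by -3.09 points (-3.80 to -2.39) and from that of lost distal peaks by -0.673 points (-1.23 to -0.104). The KO share was higher in every set, and the CTCF lists differ in length, 23903 peaks in control and 34474 in KO; the part of list length in this was not tested. Of the 293 members with KO CTCF, 167 (57.0%, 51.3 to 62.5%) had no control CTCF peak. This compared with 51.0% of kept and 49.9% of lost distal peaks with KO CTCF and with 61.4% of all KO CTCF peaks (21158 of 34474). The last share counts CTCF peaks and the others count H3K27ac peaks, so it is not a like comparison. Counted as CTCF peaks, 144 of 13316 shared and 150 of 21158 KO-only peaks lay on a member.

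Seen from CTCF, a member overlapped 1.08% of the 13316 KO CTCF peaks shared with control, 0.709% of the 21158 found in KO only and 0.294% of the 10553 control-only peaks. Within 10 kb a KO CTCF peak was found for 26.0% of members, against 32.2% of kept and 32.3% of lost distal peaks. Of the members with KO CTCF, 12.3% had lain over control H3K9me3, and of the others 15.1%. The 10 largest clusters held between 0 and 3 CTCF peaks in each genotype.

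Distance to the nearest control TAD edge did not set the members far apart. Its median was 74.3 kb (72.1 to 76.8) for members, 69.4 kb (67.7 to 71.7) for kept and 72.3 kb (70.5 to 74.1) for lost distal peaks, on a 20 kb grid. New peaks at H3K4me3 lay deeper inside TADs, with a median of 105 kb. Within 20 kb of an edge were 15.1% of members, 14.4% of kept and 14.9% of lost distal peaks.

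The chromosomes differed in how many distal peaks were gained for each lost. Overall there were 0.688 new per lost distal peak. The ratio was 0.296 on chromosome 2 (415 new, 1404 lost) and 0.418 on chromosome 17, and it was 1.36 on chromosome 12 (712 new, 525 lost), 1.47 on chromosome 4 and 1.53 on chromosome 21. Expression of whole chromosomes was shifted for some of these: the median log2 fold change of tested genes was -0.54 on chromosome 2 and 0.37 on chromosome 12, against 0.03 on chromosomes 4, 17 and 21. Chromosome 19, with a ratio of 0.798, had a median of 0.34 over 1138 genes. Over the 23 chromosomes the Spearman correlation of the ratio with the median expression change was 0.018. A part of chromosome-wide shifts in the numbers of chromosomes 2, 12 and 19 was not tested. Without chromosomes 2 and 12, the members' share over control H3K9me3, their compartment shares and their CTCF shares moved by less than their intervals.

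Last, the RNA of proteins that write, erase and read H3K27ac was examined, together with transcription factors that bind enhancers in epithelial cells. Of the 28 genes of H3K27 acetylation and enhancer function, all tested, 9 were higher and 9 lower in KO by edgeR's quasi-likelihood test with Benjamini-Hochberg adjustment, and 10 were not called. The shares of 32.1% each compare with 32.8% higher and 30.0% lower among all 17767 genes tested, and the median log2 fold change of the list was -0.01 beside 0.00 for all genes.

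The 4 acetyltransferases were all called higher by small amounts. CREBBP was at 56.2, 52.9 and 52.7 CPM in control and 64.3, 66.4 and 62.1 CPM in KO libraries, without overlap (log2 fold change 0.26, SE 0.050, edgeR adjusted p = 6.5e-05). EP300, its paralogue, overlapped between genotypes (80.2, 80.7 and 74.4 CPM against 93.4, 86.5 and 78.7 CPM). Its log2 fold change was 0.14 (edgeR adjusted p = 0.029), and 5 of 11 alternatives lost the call, with adjusted p between 0.0018 and 0.17. KAT2A and KAT2B, the GCN5 and PCAF enzymes, had log2 fold changes of 0.17 and 0.14, and 1 and 7 of 11 alternatives lost their calls. DESeq2, upper quartile scaling and leaving out control replicate 3, KO replicate 1 or KO replicate 2 each ended the call of both EP300 and KAT2B. The call of KAT2A was lost without KO replicate 2, and that of KAT2B also without control replicate 2 or KO replicate 3.

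Among deacetylases, 4 were lower. The class I deacetylases HDAC1, HDAC2 and HDAC8 had log2 fold changes of -0.21, -0.30 and -0.47, and the deacetylase SIRT1 of -0.45. SIRT1 was at 54.9, 50.8 and 53.7 CPM in control and at 39.4, 38.7 and 39.1 CPM in KO libraries. BRD2, a bromodomain reader of acetylated histones, was higher, with a log2 fold change of 0.40.

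Among enhancer methylation factors, KDM1A, which removes H3K4 methylation, fell (log2 fold change -0.32) and the H3K27 demethylase KDM6A rose (0.17). KMT2C, an enhancer H3K4 methyltransferase, was called at 0.15, a call that upper quartile scaling and the removal of control replicate 2, control replicate 3 or KO replicate 1 each ended. The Mediator kinase module was split, with MED12 at 0.37 and CDK8 at -0.37. For the genes of this list named here, all other calls were kept in 11 of 11 alternatives.

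Of 46 transcription factors, 42 passed the count filter (FOSB, BATF, NKX2-1 and GRHL2 did not). Of these 42, 24 (57.1%) were higher and 11 (26.2%) lower, beside 32.8% and 30.0% of all genes, with a median log2 fold change of 0.21. The number called higher ranged from 20 to 25 over 11 alternatives and that called lower from 11 to 12.

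FOXA1, a pioneer factor that opens chromatin at enhancers, was at 16.3, 17.3 and 16.1 CPM in control and 71.4, 75.3 and 75.2 CPM in KO libraries, the highest rise of the list (log2 fold change 2.16, SE 0.057, edgeR adjusted p = 1.6e-22). FOXA3 rose by 0.76 and FOXA2 fell by 0.41 on the log2 scale, so the family did not move together. SOX2, a factor of stem and airway cells, was at 6.80, 6.57 and 7.45 CPM in control and 26.8, 25.4 and 24.8 CPM in KO libraries (1.88, SE 0.078, edgeR adjusted p = 5.8e-18). SOX9 and SOX4 had log2 fold changes of 1.05 and 0.57. EHF, an epithelial ETS factor, was at 15.2, 13.4 and 13.9 CPM in control and 48.6, 45.7 and 46.4 CPM in KO libraries (1.72, SE 0.063, edgeR adjusted p = 3.2e-19). For these genes the genotypes did not overlap.

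AP-1, the dimer of FOS and JUN family proteins found at many inducible enhancers, was divided: JUND, FOS and ATF3 were higher (log2 fold changes 1.12, 0.64 and 0.68) and FOSL1, FOSL2, JUN and BATF3 lower (-0.77, -0.63, -0.31 and -0.81). The GATA family was divided too, as GATA3 rose by 1.32 and GATA2 fell by 1.40 on the log2 scale. HNF4A, a factor of endodermal epithelia, fell by 0.55. CEBPD, a stress-responsive C/EBP factor, had a log2 fold change of 1.46, KLF5 of 0.48 and ELF3 of 0.28. Lower were also GRHL1 (-1.11) and TEAD1 (-0.36). Whether any of these factors bound the new distal peaks was not tested, because sequence and gene annotation of the files' build were not used here.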

How the data were processed

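RNA-seq, ChIP-seq and Hi-C of A549 control and SETDB1 KO cells were used; input libraries were not. The authors deposited whole-number counts per gene (stranded total RNA libraries, per the labels' protocols), a compartment signal per 100 kb bin and replicate as a signed score whose method was not given in the sources used here, and peaks and TADs as positions only. The submitters' processing notes name STAR 2.6.1c, edgeR 3.30.0, Bowtie2 2.2.3, SAMtools 1.5, Picard, MACS2 and hg19. Histone ChIP used chromatin cut by MNase and CTCF ChIP sonicated chromatin, per the labels' protocols. The strand setting of counting and any pooling of ChIP libraries were not given in the sources used here. Pooled libraries would hide the spread between replicates, and a caller's threshold can turn a small difference in height into a new peak.

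The members, gene lists and comparison sets were chosen with earlier results of these data known. Overlap was at least 1 bp, and a peak was placed in the bin of its midpoint. Counts were tested in R 4.3.3 by the robust quasi-likelihood test of edgeR 4.0.16, on genotype alone, after filterByExpr and TMM. Library totals of 18065062 to 48364919 counts set the precision, and CPM used TMM-scaled library sizes. Bins were tested with limma 3.58.1 on 4 replicate columns; both used Benjamini-Hochberg adjustment over all features at 0.05, and both fits were tested on simulated data. Of 62486 gene IDs, 58642 (93.8%) matched a symbol; a RefSeq table on GRCh38.p14 gave the chromosome of 88.6% of tested genes and was used for nothing else. Peak overlaps used numpy 2.4.6 and pandas 2.3.3 in Python 3.11.15. RNA-seq libraries of the same genotype all differed by more than counting noise, which was not examined for Hi-C or ChIP-seq. Of the per-sample columns, 0 went unmapped.

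Regions were named by rule: the 10 clusters and 5 TADs with the most members, the 5 bins with the most, the 5 widest members, and the 5 largest rises and falls of bins with at least 3 members; genes were SETDB1 and any member of the lists. Some members of the lists are not reported here. From the others, the ones described in full were picked with their values in view. The fit for genes near the members, which needs an annotation of hg19, was not run. Alternatives were other scalings, filters, overlaps, gaps and widths, DESeq2 1.42.0, a replicate block and leaving out each replicate. Those without chromosome 19, or without chromosomes 2 and 12, were added after the data were seen.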

Additional observations from a re-analysis of the deposited data

How the results depend on the processing

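Of 191 alternative values for the shares, counts and distances of the members, 148 stayed close to the main value and 43 moved (counts by over 1.5 times, other values beyond the spread or interval of the main value); of 418 for named genes, 17 lost a call and none changed sign. Bins above the 10th percentile of absolute signal gave 92.4% of members in A, 2.81% B to A, 0.695% A to B and a mean difference in B bins of 0.342. Without chromosome 19 these were 89.2% in A, 3.95% B to A and 0.231, with control H3K9me3 at 13.9% and a surplus over kept distal peaks of 4.21 points. Autosomes alone gave a difference of 0.269. Without chromosomes 2 and 12 it was 0.294, the median gap 31.4 kb and the share in clusters 13.5%.

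The 3949 members of at least the median width gave 606 bins higher and 665 lower, a difference of 0.310, control H3K9me3 at 17.2%, a surplus of 6.79 points, KO CTCF at 3.29%, a gap of 59.8 kb, 109 clusters with 9.95% of members and 113 TADs with at least 5; fewer members alone widen gaps. Asking for 50% of the peak inside a mark gave 12.2% for control H3K9me3, 0.469% for control and 0.0634% for KO H3K27me3. Within 5 kb the shares were 32.8% and 1.81% for control and KO H3K9me3, and 5.35% and 3.995% for H3K27me3. CTCF within 10 kb lowered the share of members with KO CTCF but no control CTCF to 44.9%.

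For clusters, gaps up to 5 kb gave 132 clusters with 5.80% of members and 25 kb gave 496 with 25.2%. Merging H3K27ac peaks within 1 kb gave a gap of 52.7 kb, 135 clusters, 7.57% and 196 TADs with at least 5. Leaving out members within 1 kb of an excluded peak gave 46.0 kb, 178 clusters, 10.3% and 220 TADs.

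Replicate numbers were not treated as pairs in the main fits. Deviations of same-numbered samples correlated at 0.211, 0.134 and 0.0709 across genes and at -0.00257 across bins. The values across genes were low but all positive, and a shared effect of replicate number was examined only by the block that follows. With the replicate number as a block, 1114 bins with a member were higher and 1247 lower, the acetylation list had 10 higher and 9 lower genes, the transcription factors 24 and 11, and 11655 genes were called against 11157. Of genes called, 52.2% were higher, and 48.4% under upper quartile scaling, 55.7% by library size and 57.6% without a filter. Leaving out each replicate in turn moved none of these counts by over 1.5 times. Depth of the ChIP libraries is unknown here, so a peak that is new and a peak that was too shallow to call in control cannot be told apart.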
